A study of Mus musculus with 2 samples.

Results

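The 10 genes described here code for the core of the microRNA pathway: the Argonaute proteins Ago1, Ago2, Ago3 and Ago4, the nucleases Drosha and Dicer1, the Drosha partner Dgcr8, and the GW182 proteins Tnrc6a, Tnrc6b and Tnrc6c. Members were taken by symbol, as every probe for a transcript whose gene name on the array equals one of these symbols. This gave 16 probes of 55681. The rule itself used no measured value, but the genes were chosen with earlier results of these data known. Ago2 had 4 probes, Ago1, Ago4 and Drosha had 2 each, and the other 6 genes had 1 each. Each probe was printed once, and all 16 were well above background on both arrays, so 10 of 10 genes passed the filter on dim probes, and the series held 25851 such genes in all. The RefSeq table of assembly GRCm38.p6 gave the same symbol for the 14 probes with a RefSeq accession. No probe shared a run of more than 16 bases with a probe of another gene name, on either strand.

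MicroRNAs are cut from long transcripts in steps. Drosha and Dgcr8 form the Microprocessor, which releases a hairpin in the nucleus, and Dicer1 trims the exported hairpin to a short duplex. An Argonaute protein keeps one strand and, as the core of the RNA-induced silencing complex (RISC), uses it to find target mRNAs. GW182 proteins bind Argonaute and bring in the deadenylases and decapping factors that silence the target. In mouse embryonic stem (ES) cells, loss of Dicer1 or Dgcr8 is known to disturb the exit from self-renewal.

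RNA was measured on 2 one-colour arrays, 1 per group, from E14Tg2A, an ES cell line of the 129/Ola strain. Both groups were kept in a minimal medium of known composition, with N2/B27, FGF2 at 12 ng/mL and Activin A at 20 ng/mL. The starting cells differed: EpiSC (epiblast stem cells) were made from ES cells directly, and ELA-EpiSC from aggregates of ES cells after LIF withdrawal, called Epiblast-Like Aggregates (ELA). RNA of 3 sets of experiments was pooled for each array, so no comparison has a replicate and no p-value can be given. For EpiSC, the label of the source material gives an Argonaute immunoprecipitate and that of ELA-EpiSC total RNA, both at the undifferentiated stage, whereas the titles, descriptions and molecule fields give total RNA of the cultures named above. The titles set the groups. RNA bound to Argonaute would be a different quantity from total RNA, so noncoding RNAs were read as well. These were nuclear RNAs and the snoRNA host genes Snhg1, Snhg3 and Gas5. Of 10 such RNAs, 9 were detected, with 5 above and 4 below an equal level and a median log2 difference of 0.03, whose sign turned in 5 of 14 alternatives. Past an absolute difference of 1 were 4 of the 9, beside 6.73% of all detected genes. These were Snhg1 at 1.46 and Neat1 at 1.39, and Airn at -2.01 and Snhg3 at -1.81. Each of them was past 1 in all 14 alternatives, but of the 3 Airn probes the highest difference was -0.84. Malat1 stood at a log2 level of 10.87 in EpiSC and 10.90 in ELA-EpiSC. The part of the source material in the differences below was not tested.

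Levels are log2 signal after background correction with an offset of 50 and quantile normalization, and differences are log2 ELA-EpiSC minus EpiSC. Error could be estimated only within an array. It was taken from 322 detected probes that were printed 10 times each. Their between-array difference had an SD of 0.10 (root mean square), called the spot SD here, and this holds no variation from labelling or culture. The error model of the scanner software gave a larger error of a log2 difference, 0.20 on the brighter Ago1 probe and 0.33 on the Ago3 probe. The 8 detected spike-in probes had a mean normalized difference of -0.54, with a range of -0.86 to -0.26. Setting their mean equal therefore shifts every difference up by the size of that mean and moves the median of all genes from -0.01 to 0.53. Scaling to the 75th percentile after background correction moves that median to -0.18.

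Markers of the cultures differed between the arrays. Of all 25851 detected genes, 6.73% were past an absolute difference of 1. All 7 markers of shared and primed pluripotency were detected, with a mean log2 level of 14.12 in EpiSC and 14.27 in ELA-EpiSC. They went both ways: Pou5f1 (Oct4) differed by 0.19, Pou3f1 by 1.46 and Dnmt3b by -0.84. Sox2 differed by -0.27, which became 0.26 with spike-in RNA set equal. Nanog differed by 0.32, with its 3 probes between -0.31 and 0.32. Fgf5 at 0.16 and Otx2 at 0.00 were at -0.20 and -0.31 in the scanner software's processed signal. The median of the 7 markers, 0.16, had the opposite sign in 2 of 14 alternatives. The 4 mesenchyme markers had a mean level of 9.47 in EpiSC and 11.52 in ELA-EpiSC, with 3 past a difference of 1. These were Col1a1 at 3.72, Vim at 2.53 and Col3a1 at 1.88, whereas Col1a2 was at 0.08, or -0.03 in processed signal. The 5 visceral endoderm markers had 8.67 and 6.70, with 3 past -1, and went both ways. Hnf4a was at -5.12, and Ttr at -3.47 and Apoa1 at -2.02 were each detected on 1 array only. Apob was at 0.55 and Afp at 0.21, both dim. Their median of -2.02 became 0.21 when detection on both arrays was required. Neural markers had a mean level of 10.09 and 11.01 over the 3 of 4 detected, with Nes at 2.11, Tubb3 at 0.72 and Sox1 at -0.09 (above 0 in 3 alternatives), and Pax6 was too dim to be called on both arrays. Ground-state markers stood at 9.92 and 8.70 over 5 genes, with Tbx3 at -3.75 and Nr0b1 at -2.74, the 2 past -1, Zfp42 at -0.22 (0.32 with spike-in RNA set equal), Klf4 at 0.16 and Esrrb at 0.43. The part of these markers in the differences below was not tested, and in bulk RNA fewer cells of a type and less RNA per cell cannot be told apart.

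Most members were slightly higher in ELA-EpiSC. By the brightest probe of each gene, 8 of 10 had a difference above 0, beside 49.2% of the 25851 genes, and the median was 0.24 with a range of -0.22 to 0.77. That count depended on scaling and on the choice of probe. With the spike-in probes set equal, 10 of 10 were above 0, where 90.4% of all genes were. It was 9 with median scaling, where 56.0% were, and 7 with the 75th percentile after background correction, where 32.6% of all genes were. With a gene's probes averaged it was 7, where 48.9% were. The difference lay within the spot SD in Ago3 and Dicer1. In the scanner software's processed signal it lay within it in Ago1 at 0.07, Ago2 at 0.09 and Dicer1 at 0.09, and Ago3 was at -0.31. The share of all genes past the spot SD was not counted, so passing it does not set the members apart. None of the 10 genes reached an absolute difference of 1, beside 6.73% of all genes, and 1 of the 16 probes did, beside 5.65% of all probes.

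**Figure D1:**
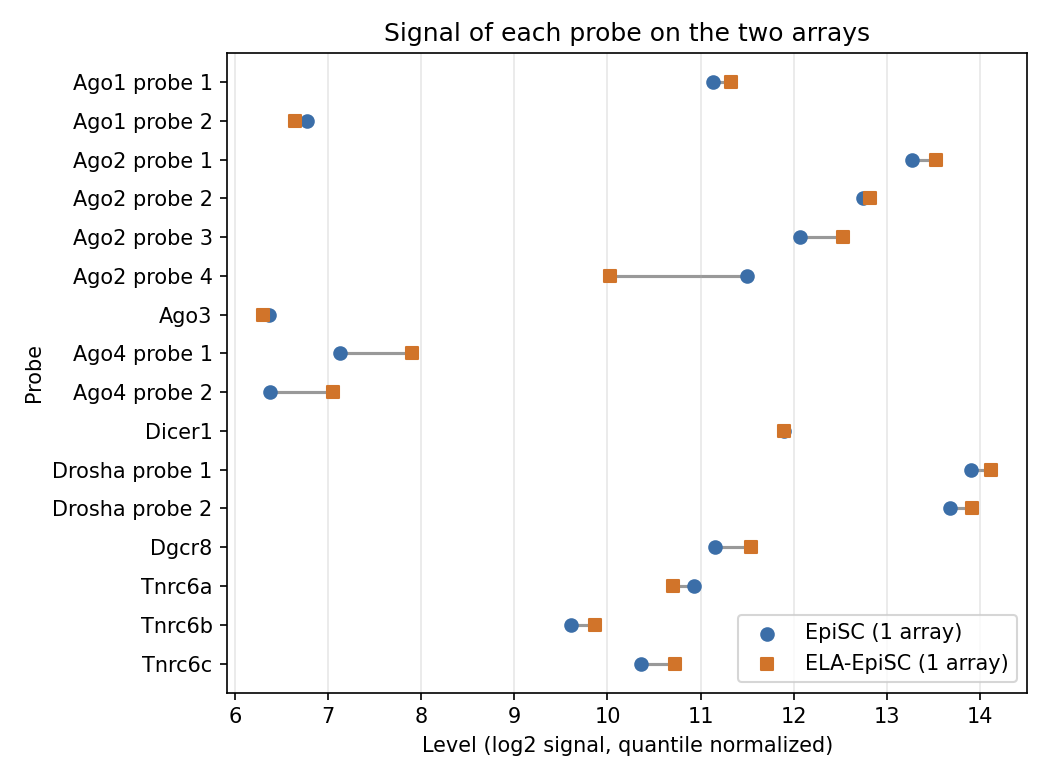
Level of each of the 16 probes (log2 signal, quantile normalized; x axis) on the EpiSC array (circles) and the ELA-EpiSC array (squares), 1 array each, with probes of a gene numbered from the brightest. Levels of different probes are not comparable with each other; along each line, the widest gaps are those of Ago2 probe 4, lower in ELA-EpiSC by -1.47, and Ago4 probe 1, higher by 0.77.

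The Microprocessor genes were both higher in ELA-EpiSC. Drosha, the nuclear enzyme that cuts primary microRNA transcripts, gave a raw mean signal of 14269 intensity units in EpiSC and 18891 in ELA-EpiSC on its brighter probe. After normalization these were 13.90 and 14.12, a difference of 0.22. The other Drosha probe, separated from it by 137 bases on chromosome 15 (chr15:12864964-12865023, plus strand, mm9), gave 12134.5 and 16464 units and a difference of 0.23. The 2 probes differed from each other by less than the spot SD. Dgcr8, the RNA-binding partner that Drosha needs to cut its substrate, had 2038 units in EpiSC and 3268 in ELA-EpiSC. Its levels of 11.16 and 11.54 gave a difference of 0.38, the highest among the 6 genes with 1 probe, and a range of 0.29 to 0.92 over 14 alternative ways of processing. Neither gene changed sign under any of those alternatives.

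Dicer1, the cytoplasmic enzyme that cuts the hairpin, was the member with the smallest difference. Its probe (chr12:105926064-105926123, minus strand, mm9) gave 3418 units in EpiSC and 4162 in ELA-EpiSC. Normalized levels were 11.89 and 11.90. The difference was 0.00, less than the spot SD, and it ranged from -0.01 to 0.54 over the alternatives.

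Among the Argonautes, which hold the microRNA, the 4 genes and their probes did not give a single picture. Ago1, Ago3 and Ago4 are neighbours on chromosome 4. In the RefSeq table they follow each other in the order Ago3, Ago1, Ago4 with no other gene inside the interval, and their array probes span 137265 bases (chr4:126032332-126169596, mm9). Ago2, the Argonaute that can itself cut a target, lies alone on chromosome 15.

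Ago4 had the largest gene difference of the 10, and both of its probes were higher in ELA-EpiSC. Both were dim. The beginnings of these probes (30 of their 60 bases, read from the array file, minus strand of chromosome 4, mm9) are shown because both rest on little signal and do not overlap.
Ago4 probe 1, chr4:126169537-126169596: gccctttctcctgacgtcgttttctagatg
Ago4 probe 2, chr4:126167162-126167221: aaagcggaagttaaggtcatcatactaata

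Ago4 probe 1 gave 99.4 units over a local background of 25 in EpiSC and 225 over 25 in ELA-EpiSC. Ago4 probe 2 gave 52.1 over 29 and 105 over 24 units. On both probes the ELA-EpiSC spot was more than 2 times as bright before any background was removed. Normalized levels were 7.13 and 7.90 for probe 1, a difference of 0.77, and 6.37 and 7.05 for probe 2, a difference of 0.68. The offset of 50 added before the log2 step is large beside these signals and makes their differences smaller. In the processed signal, from which the scanner software had subtracted its own background with no offset, probe 1 stood at 73.0 ± 7.61 and 196 ± 19.7 units and probe 2 at 19.9 ± 2.76 and 70.9 ± 7.46 units (± the error model of the software). The unscaled ratios were 2.68 and 3.57. Scaled to the 75th percentile, the differences were 1.10 and 1.52. Ago4 was the only member with a gene difference of 1 or more in that direction on this scale, where 5.22% of the 23970 genes detected on both arrays had one, as did 8.18% of the 3410 genes with a mean level within 0.5 of that of Ago4. The gene difference was past 1 in 3 of 14 alternatives (processed signal, an offset of 0 and spike-in probes set equal), it was 0.98 in the deposited log2 values, and it was above 0 in all 14.

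The neighbours of Ago4 had differences nearer to 0. Ago3 had 1 probe, near the lower limit of detection, with 48.6 units in EpiSC and 48.4 in ELA-EpiSC over a background of 26 on both arrays. Its normalized levels were 6.36 and 6.30, and the difference of -0.06 lay within the spot SD and became 0.48 with the spike-in probes set equal. Ago1 was read by a bright and a dim probe. The bright one (chr4:126112644-126112703, minus strand, mm9) gave 2009 units in EpiSC and 2792 in ELA-EpiSC, levels of 11.14 and 11.32 and a difference of 0.19. The dim one lies 4558 bases upstream and gave 74.7 units in EpiSC and 68.8 in ELA-EpiSC. Its levels were 6.77 and 6.65, a difference of -0.12, which was -0.42 in the processed signal and 0.41 with the spike-in probes set equal. Its 60 bases are shown because they hold an uninterrupted reading frame from the first base, whereas the bright probe (its first 30 bases are given) is open only in frame 3.
Ago1 probe 1, chr4:126112644-126112703: tccttaaaaagggaaatcagaaactctcca
Ago1 probe 2, chr4:126117202-126117261: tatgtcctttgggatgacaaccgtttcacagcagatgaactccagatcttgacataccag

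Ago2 was read by 4 bright probes, of which 3 were higher in ELA-EpiSC and 1 was lower; probe 2 changed to -0.07 in processed signal. They span 10556 bases on the minus strand of chromosome 15 (mm9), and the first 30 bases of each are given in the direction of transcription, because neighbouring stretches gave opposite differences.
Ago2 probe 3, chr15:72936863-72936922: catgaaagccacaccatttccattggggtt
Ago2 probe 4, chr15:72935705-72935764: acgagccttctcttgtgtgctgctctgtgc
Ago2 probe 1, chr15:72928888-72928947: cagtagtgatgttacttaaagttaagcctt
Ago2 probe 2, chr15:72926367-72926426: gccccataacatgcacagaatgctgtaaac

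Probe 3 gave 3882 units in EpiSC and 6480.1 in ELA-EpiSC, levels of 12.07 and 12.53 and a difference of 0.46. Probe 4, 1158 bases further along the genome, gave 2591 and 1132 units, levels of 11.50 and 10.03 and a difference of -1.47. Probe 1, the brightest, at 7975 bases, gave 8989.7 and 12758 units and a difference of 0.27, and probe 2, at 10496 bases, 6266 and 7837 units and a difference of 0.07. In the order of these genomic positions, the differences were thus higher, lower, higher and, for the last, within the spot SD. Probe 4 stayed below 0 under all 11 alternatives that could be run per probe, from -1.57 to -0.93, and passed 1 in 10 of them. In the processed signal it stood at 2340.3 ± 234 units in EpiSC and 984 ± 98.4 in ELA-EpiSC.

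A spread of this size between probes of a gene was uncommon on these arrays. The 4 Ago2 differences spanned 1.93, and among 358 genes with 4 probes detected on both arrays the median span was 0.37 and 3 genes, Ago2 included, spanned at least as much. The gene value of Ago2 therefore depended on the probe. It was 0.27 by the brightest probe and -0.17 by the mean of the 4. Probe 4 had the highest share of G and C bases of the 4, with 53.3%, beside 35.0% for probes 1 and 2 and 45% for probe 3. Its spot was neither marked as an outlier nor saturated on either array. Probes 1 and 2 are annotated to an Ensembl transcript and probes 3 and 4 to a RefSeq transcript. The part of transcript variants, base composition or other targets in the value of probe 4 was not tested.

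**Figure D2:**
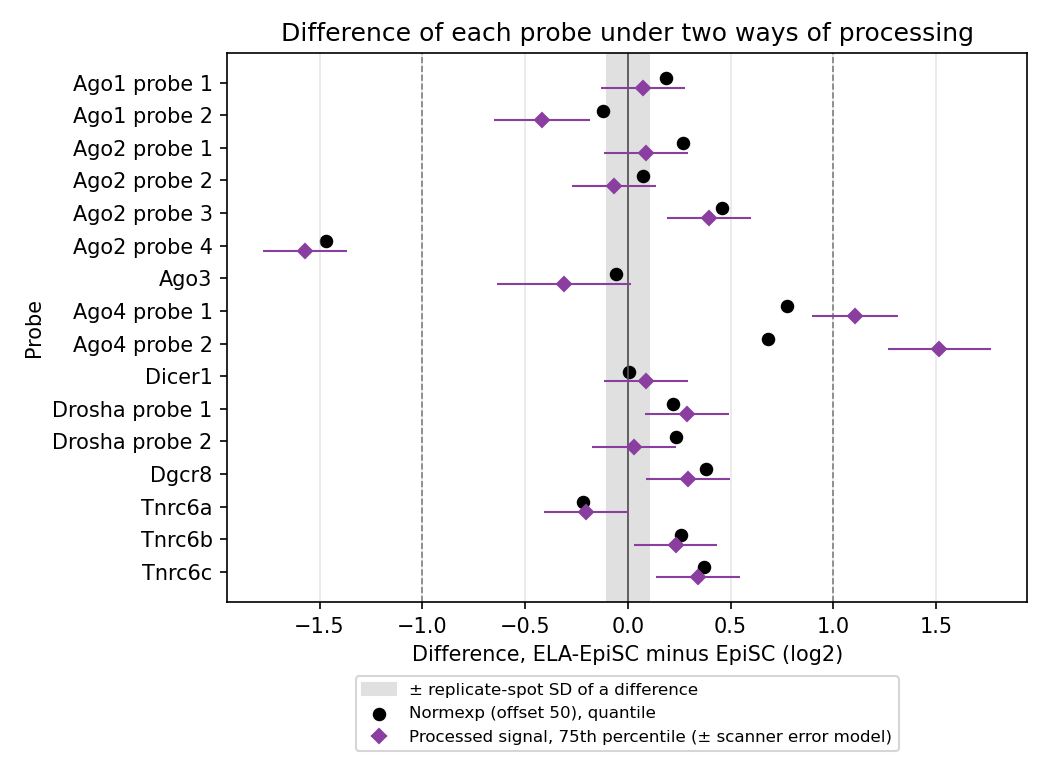
Difference of each of the 16 probes (log2 ELA-EpiSC minus EpiSC; x axis) in the normalized values (circles) and in processed signal scaled to the 75th percentile (diamonds, bars ± the scanner software's error model), with dashed lines at an absolute difference of 1 and a grey band at the spot SD of 0.10. Ago2 probe 4 lies past the dashed line in both, at -1.47 and -1.57, and the Ago4 probes pass it only in the processed signal, at 1.10 and 1.52.

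The GW182 genes, whose products link Argonaute to the silencing machinery, did not all have the same direction. Tnrc6c gave 1146 units in EpiSC and 1854 in ELA-EpiSC. Its levels of 10.36 and 10.73 differed by 0.37. Tnrc6b gave 679.0 and 1000.5 units, levels of 9.61 and 9.87 and a difference of 0.26. Both were above 0 under every one of the 14 alternatives. Tnrc6a was the only bright member lower in ELA-EpiSC, apart from Ago2 probe 4. Its raw signal was 1728 units in EpiSC and 1829.6 in ELA-EpiSC, and its normalized levels were 10.93 and 10.71. The difference of -0.22 exceeded the spot SD, and it became 0.02 with median scaling and 0.32 with the spike-in probes set equal.

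**Figure D3:**
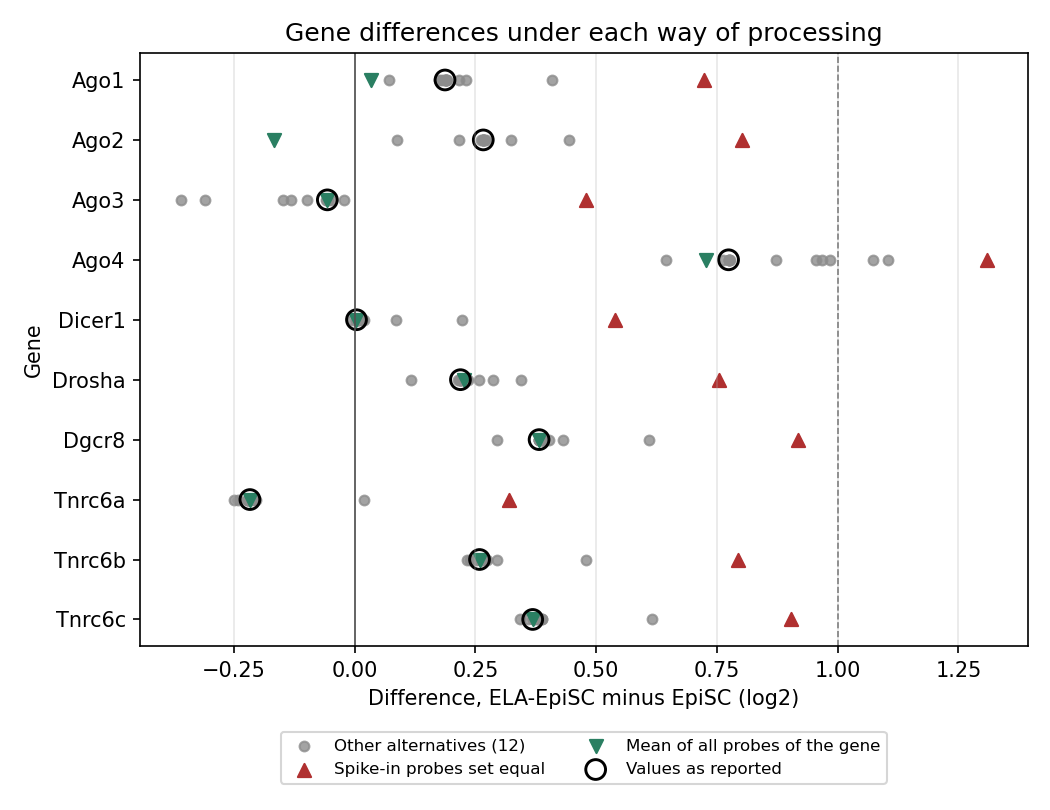
Difference of each member gene (log2 ELA-EpiSC minus EpiSC; x axis) as reported (open circles) and under 14 alternatives, with the spike-in scaling (triangles up) and the mean of all probes (triangles down) marked apart and a dashed line at 1. Dgcr8, Tnrc6b, Tnrc6c, Drosha, Ago1 and Ago4 stay above 0 throughout, whereas Ago2 is at -0.17 with the mean of its probes and Ago4 reaches 1.31 with spike-in scaling.

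The genes that act before, beside and after these 10 were read from lists chosen by function. The counts of each list stand beside 49.2% of all 25851 detected genes above 0 and 6.73% past an absolute difference of 1. In nuclear processing and export, 13 of 13 genes were detected, 7 were higher and 6 lower in ELA-EpiSC, and 0 passed 1. The median was 0.01, with the opposite sign in processed signal, after 75th percentile scaling and with median pixel signal. Xpo5, the exporter of the hairpin, differed by 0.35 and kept its sign. Hnrnpa2b1, an RNA-binding protein, had a difference of 0.87, whereas another of its 3 probes gave -0.07. Ncbp2, a cap-binding protein, differed by -0.53 and Srsf3, a splicing factor, by -0.39, and both were above 0 with the spike-in probes set equal.

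Among Dicer partners and factors that load Argonaute, 7 of 13 were higher, 6 lower and 1 past 1. The median was 0.07, with the opposite sign in processed signal, after 75th percentile scaling and with cyclic loess. Adar edits adenosines in double-stranded RNA. Its level of 11.25 in EpiSC and of 12.39 in ELA-EpiSC gave a difference of 1.15 that was under 1 in 1 of 14 alternatives, at 0.96, and its other probe gave 0.76. Hspa4, a chaperone, differed by 0.22, with the opposite sign in 2 alternatives. Prkra, a double-stranded RNA binding partner of Dicer, stood at 11.32 and 10.62, a difference of -0.70 that stayed below 0 under all alternatives. Tarbp2, the other such partner, differed by -0.12, or by 0.41 with spike-in scaling. Fkbp4, a co-chaperone, differed by -0.35, which became 0.19 with the spike-in probes set equal.

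Downstream of GW182, 30 of 30 genes of deadenylation, decapping and decay were detected, 20 higher and 10 lower in ELA-EpiSC, with 1 past 1 and a median of 0.10, beside -0.01 over all genes. That median was above 0 under every alternative, from 0.03 in processed signal to 0.64 with spike-in scaling. Xrn1, the exonuclease that degrades decapped mRNA, had levels of 8.94 and 10.07 (EpiSC first), a difference of 1.13 that was past 1 in all 14 alternatives. Dcp1a, a decapping activator, differed by 0.58. The lowest were Tob1 at -0.82 and Btg2 at -0.81, antiproliferative proteins that recruit the deadenylase, and both stayed below 0 throughout.

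Of 19 regulators of microRNA turnover and RISC-associated proteins, 13 were higher and 6 lower in ELA-EpiSC. Past 1 were 2 of them, beside 6.73% of all genes, and the median was 0.08 (0.02 to 0.61 over the alternatives). Ajuba, a LIM protein of silencing bodies, differed by 1.22, past 1 in all 14 alternatives. Zcchc11 and Zcchc6 code for the terminal uridylyltransferases that tail the let-7 precursor. Zcchc11 stood at 10.73 and 11.78, a difference of 1.05 (0.60 on its other probe), and Zcchc6 at 12.29 and 11.90, a difference of -0.39 that became 0.15 with spike-in scaling. Dis3l2, the exonuclease that degrades the tailed precursor, differed by -0.56. Of the PIWI-clade Argonautes of the germ line, Piwil1 and Piwil4 were not well above background on either array, and Piwil2 was dim, at 6.63 and 7.16, a difference of 0.52.

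**Figure D4:**
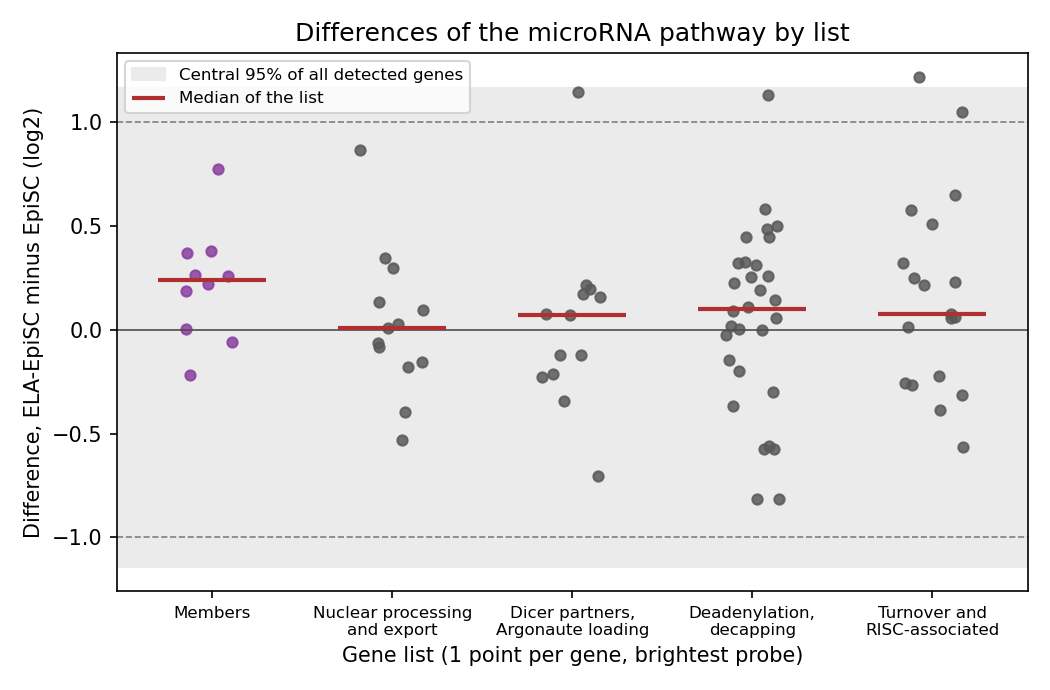
Difference of each gene (log2 ELA-EpiSC minus EpiSC; y axis, brightest probe, 1 point per gene) for the 10 members and 4 lists of the microRNA pathway, with the median of each list (line), the central 95% of all detected genes (grey, -1.14 to 1.17) and dashed lines at an absolute difference of 1. The members lie between -0.22 and 0.77 with a median of 0.24, and the lists have medians between 0.01 and 0.10.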

How the data were processed

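Per the file headers, both arrays were Agilent SurePrint G3 arrays read with Feature Extraction 10.7.3.1, with probe coordinates of mm9 (the submitters' processing notes name version 9.1). The authors deposited unnormalized spot intensity (mean and median pixel signal, local background) and a processed intensity with its error. They also deposited log2 values per probe, background-corrected and quantile normalized with limma, offset not stated. RNA (50 ng per the labels) was labelled with Cy3.

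From the mean signal and median background, normexp correction (limma 3.58.1, R 4.3.3, offset 50, all spots) was followed by removal of control spots and of 158 and 117 spots marked as outliers, quantile normalization and log2. Detection of a probe required the software's well-above-background mark on 0.5 or more of its spots, and a gene took its brightest detected probe. Each array held 62976 spots, 0 saturated, with 65.9% and 65.0% of probes detected and a median signal of 71.7 and 79.1 units. Both lay on 1 slide, and the number of arrays limits the precision. Tested on simulated data, the normalization gave back the differences of bright probes nearly in full and those of dim probes too small. The simulated arrays shared the same signal apart from a common factor, spot noise and few changed probes. The simulation therefore cannot show how the normalization acts on arrays that differ more widely. Named genes were all members and, of each list, the 2 most different in each direction plus any past 1; Tarbp2 and the markers printed were chosen after their values were seen. Members, lists and alternatives were chosen with earlier results of these data known. Position within exons or untranslated regions was not analysed here.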

Additional observations from a re-analysis of the deposited data

How the results depend on the processing

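No paired analysis was possible because the design held 1 array of pooled RNA per group. The median difference of the members, 0.24, was 0.43 with median scaling, 0.77 with the spike-in probes set equal and 0.13 with a gene's probes averaged, and moved by less than the spot SD under the other 11 alternatives. The count of members past 1, which was 0, became 1 (Ago4) with an offset of 0, with processed signal and with spike-in scaling, while the share of all genes past 1 went from 6.73% to 10.5%, 14.7% and 12.9%. The count of probes past 1, which was 1, became 3 with an offset of 0 and with processed signal, and 2 with an offset of 16, with spike-in scaling and with the deposited log2 values. The share of all probes past 1 went from 5.65% to 9.66%, 14.6%, 7.30%, 11.8% and 8.79% under these settings, in the same order. A smaller offset compresses dim probes less, by construction, and spike-in scaling adds a constant. Under spike-in scaling the 2 probes were those of Ago4, and Ago2 probe 4 was at -0.93. The sign of a gene's difference changed for Ago2 (mean of probes), Ago3 and Dicer1 (1 alternative each) and Tnrc6a (2 alternatives). Signal over background limits Ago3, Ago4 and the dim Ago1 probe.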

Other observations

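Host transcripts of microRNAs, chosen after the files were seen, gave no common direction. The 3 probes of Mirg, a microRNA-bearing transcript of the imprinted Dlk1-Dio3 region, differed by 0.50, -0.69 and -0.77. Mir17hg, the host of a microRNA cluster, differed by -0.29 and Mir22hg, which was dim, by 0.69. Beside Ago4, 3410 genes detected on both arrays had a mean level within 0.5 of its own, and the normalized difference reached that of Ago4 in 6.74%.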
